A study of Drosophila melanogaster with 3 samples.

Results

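The genes for mitochondrial ribosomal proteins were taken from the Ensembl BDGP6 annotation as the protein-coding genes whose symbol starts with mRpL or mRpS followed by a digit. The rule found 73 genes among 13945 protein-coding genes, 47 for the large subunit (mRpL) and 26 for the small subunit (mRpS). Chromatin of whole Drosophila melanogaster embryos, 0 to 16 h old and of pooled sexes, was precipitated with an antibody against GFP and sequenced (ChIP-seq). The flies were of the transgenic strain CG5180-GFP, which stably expresses the CG5180 protein with GFP fused to its C-terminus, a protein still known by its gene number. The series forms 1 group of 3 biological replicates, and no library from untagged flies was analysed here, so signal that any GFP precipitation would give cannot be told apart from signal of CG5180. Whole embryos mix all cell types, and the data do not say in which cells a peak arose.

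Mitochondrial ribosomes translate the few messages of the mitochondrial genome, which encode membrane subunits of the respiratory chain. All their proteins are encoded in the nucleus, made in the cytosol and imported, so the nuclear genes have to be kept in step with each other and with the ribosomal RNAs of the organelle. Some of the proteins descend from bacterial ribosomal proteins and keep their numbers, and others exist only in mitochondrial ribosomes. The genes are widely expressed housekeeping genes in animals.

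CG5180 peaks lay at the starts of few mitochondrial ribosomal protein genes, about as many as for any protein-coding gene. A gene was counted when the summit of a peak lay within 250 bp of any of its transcription start sites (starts). In the IDR list, a set of 5400 peaks named for the irreproducible discovery rate, a measure of how alike peaks rank across replicates, 7 of the 73 genes were counted (9.59%), and of all 13945 protein-coding genes 12.0% were. In the pooled list of 30000 peaks, which also holds weak ones, 20 of the 73 were counted (27.4%), against 28.2% of all genes. Both shares are near the background, so neither is a result about the family as a whole. The data of interest are therefore the 7 genes themselves, mRpL41, mRpS10, mRpL23, mRpL24, mRpS2, mRpS28 and mRpS22, and where their peaks sit.

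All 7 genes have a divergent neighbour, a gene on the other strand that starts upstream within 1000 bp, and most of the summits lay in the short stretch between both starts. The stretches of 4 of these genes are shown because the peaks cannot be assigned to a single gene within them, together with 201 bases around the strong summit that lies just beyond the window at mRpS23. Sequences are from genome release 6 (dm6), read 5' to 3' on the strand of the mitochondrial ribosomal protein gene. The first 4 end at the base before that gene's start, and those of mRpS10, mRpL24 and mRpS2 begin at the base after the neighbour's start. That of mRpS22 covers the 300 bases before its start. Capitals mark matches to the sequences sought (described below with their frequencies), which were the DRE, BEAF core, Motif 1 core, E-box, Myc E-box, GAGA, TATA and Ewg/NRF-1 sequences.
mRpS10: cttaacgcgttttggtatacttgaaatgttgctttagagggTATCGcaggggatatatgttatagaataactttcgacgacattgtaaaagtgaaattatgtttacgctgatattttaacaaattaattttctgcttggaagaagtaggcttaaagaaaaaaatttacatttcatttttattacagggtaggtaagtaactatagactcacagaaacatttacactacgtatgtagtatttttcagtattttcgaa
mRpL24: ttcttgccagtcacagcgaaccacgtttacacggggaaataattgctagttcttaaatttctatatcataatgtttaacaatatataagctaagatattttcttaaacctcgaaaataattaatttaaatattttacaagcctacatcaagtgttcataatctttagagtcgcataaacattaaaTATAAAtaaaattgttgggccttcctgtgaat
mRpS2: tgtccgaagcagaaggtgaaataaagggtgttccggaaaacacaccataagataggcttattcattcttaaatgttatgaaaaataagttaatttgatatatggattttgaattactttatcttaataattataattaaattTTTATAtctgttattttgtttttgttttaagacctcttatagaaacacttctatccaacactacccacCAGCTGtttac
mRpS22: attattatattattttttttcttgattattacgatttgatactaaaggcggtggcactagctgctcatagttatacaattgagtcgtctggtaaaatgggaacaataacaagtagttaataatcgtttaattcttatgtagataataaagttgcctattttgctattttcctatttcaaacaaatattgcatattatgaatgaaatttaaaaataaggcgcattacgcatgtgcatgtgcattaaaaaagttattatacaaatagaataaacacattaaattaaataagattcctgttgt
mRpS23: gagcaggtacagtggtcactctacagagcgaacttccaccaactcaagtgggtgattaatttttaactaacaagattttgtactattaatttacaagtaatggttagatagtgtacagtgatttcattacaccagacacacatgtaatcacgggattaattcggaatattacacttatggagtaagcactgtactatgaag
The mRpS10 stretch lies at chr3R:15229409-15229664 on the plus strand, with the IDR summit at its base 122. The mRpL24 stretch lies at chr2L:4945362-4945578 on the minus strand, with the summit at base 87. The mRpS2 stretch lies at chr2L:4850420-4850640 on the minus strand, with the summit at base 81. The mRpS22 stretch lies at chr3R:27916608-27916907 on the plus strand, with the summit at base 79, and the mRpS23 stretch at chr2L:13835357-13835557 on the minus strand has it at base 101. All are rich in A and T, with a GC content of 30.1% at mRpS10, 28.6% at mRpL24, 28.1% at mRpS2 and 26.3% at mRpS22. The stretch at mRpS23 has 36.3%.

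The large subunit gave 3 of the 7 genes, and they include the strongest. The peak of mRpL41, a protein of mitochondrial ribosomes without a bacterial counterpart, had a signal value of 2248 in the pooled list and ranked 290 among its 30000 peaks. The signal value is a score that the authors' peak caller gave each peak, and it can be compared only within a list. In replicates 1, 2 and 3 the mRpL41 peak had 883, 787 and 584, at ranks 307, 304 and 291. The replicate summits were within 5 bp of the pooled one, so all 3 libraries placed it alike. The peak (2R, 15217565 to 15217939) has an intergenic summit 125 bp upstream of the mRpL41 start. It is the only 1 of the 7 with no other protein-coding start within 250 bp of the summit, since its divergent neighbour CG8079 starts 762 bp upstream of mRpL41.

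The peak of mRpL23, related to the bacterial protein at the mouth of the exit tunnel, had a pooled signal value of 1112 at rank 546. Its values in replicates 1, 2 and 3 were 421, 395.5 and 273, at ranks 603, 591 and 583. It is also the single IDR summit of the 7 that was downstream of the gene's outermost start. The gene has 3 annotated starts, and the summit (peak at 3L, 2373449 to 2373752) lies in the 5' UTR of mRpL23, 79 bp from the nearest start and 129 bp from that of CG9004. The starts of mRpL23 and CG9004 are only 24 bp apart.

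The mRpL24 peak, at the gene for a homologue of a bacterial protein that binds early in the assembly of the large subunit, had a pooled signal value of 604 at rank 1169. Replicates 1, 2 and 3 gave 239, 204 and 159, at ranks 1201, 1370 and 1131. The peak (2L, 4945375 to 4945615) spans 241 bp and does not reach the mRpL24 start. Its summit is 131 bp from that start and 87 bp from the start of betaggt-I, which encodes a subunit of the enzyme that attaches geranylgeranyl lipids to proteins. The summit is thus nearer to the neighbour.

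Among small subunit genes, 4 were counted, 2 with strong and 2 with weak peaks. The mRpS10 peak, at the gene for a homologue of bacterial S10, had a pooled signal value of 2038 at rank 312. Replicates 1, 2 and 3 gave 873, 690 and 474, at ranks 310, 334 and 335. The peak (3R, 15229351 to 15229727) has its summit near the middle of the gap to Art3, a gene of the arginine methyltransferase family, 135 bp from the nearest mRpS10 start and 122 bp from the Art3 start.

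The mRpS2 peak had a pooled signal value of 519 at rank 1421, with 179, 218 and 126 in replicates 1, 2 and 3, at ranks 1741, 1246 and 1538. The encoded protein is related to bacterial S2. The peak (2L, 4850486 to 4850661) does not reach the mRpS2 start, and the summit is 141 bp from it. The start of Mon1, whose product takes part in the activation of the endosomal GTPase Rab7, is 81 bp from the summit.

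The peaks of mRpS28 and mRpS22, both proteins of the small subunit, were the weak ones. The mRpS28 peak (2R, 18614798 to 18615261) had a pooled signal value of 209 at rank 4536, and 68.9, 77.6 and 62.7 in replicates 1, 2 and 3. It ranked 6126 in replicate 1, below that library's strongest 5400 peaks, and 4941 and 3975 in the others. Its summit is 12 bp from the mRpS28 start and 30 bp from that of CG5323. The strongest summits at the start in replicates 1, 2 and 3 were 24, 82 and 0 bp from it. A weaker pooled summit (70.6, rank 17700) lay 218 bp upstream of the mRpS28 start. The mRpS22 peak (3R, 27916454 to 27916917) had 186 at rank 5252, close to the lowest value of the IDR list, 182. The pooled list holds a second summit at mRpS22, 22 bp upstream of the start, with a signal value of 102.5 (rank 11112). Each replicate had a single summit at the mRpS22 start, 90, 198 and 23 bp upstream of it in replicates 1, 2 and 3, with signal values of 59.2, 69.6 and 33.2. That of replicate 2 was 24 bp from the IDR summit, that of replicate 3 was 1 bp from the second summit, and that of replicate 1 lay between both. They ranked 7509, 5693 and 9608, below the strongest 5400 peaks of each replicate. The IDR summit is 222 bp from the mRpS22 start and 170 bp from that of CG5003.

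**Figure D1:**
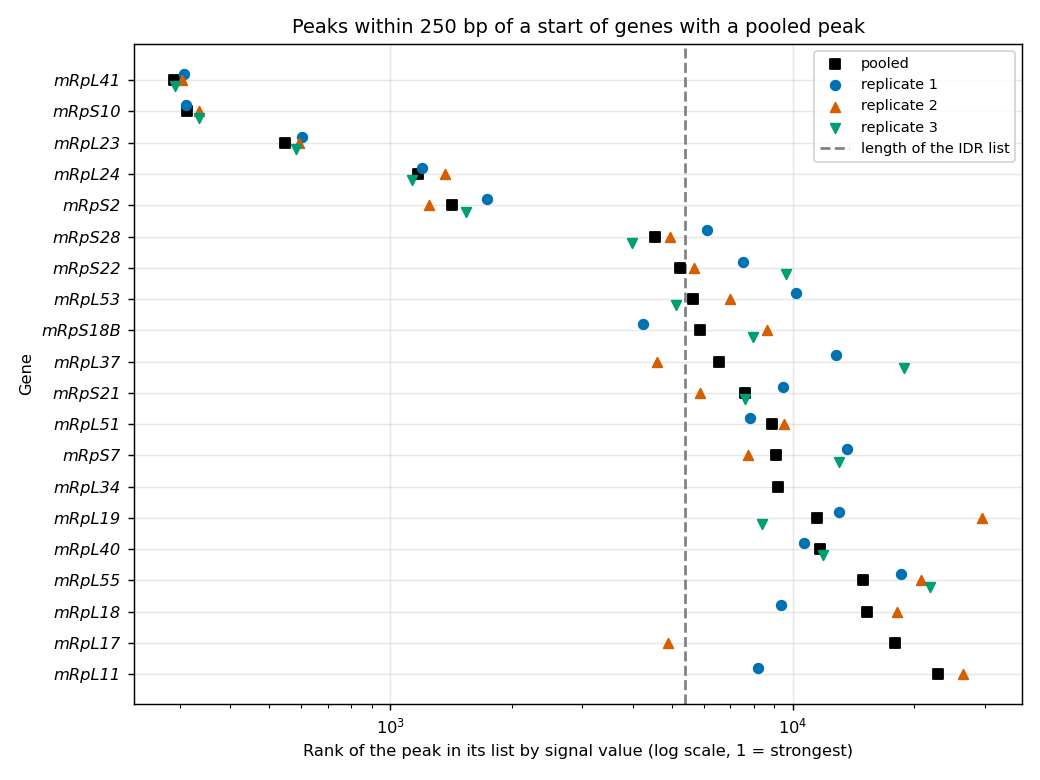
Rank by signal value (log scale, 1 is the strongest) of the strongest peak at a start for the 20 genes counted in the pooled list, in the pooled list and in each replicate, with genes in order of the pooled signal among IDR genes and then among the others. The replicate summits need not be at the pooled summit. The 5 strongest genes rank between 290 and 1741 in every list, and mRpS22 ranks beyond the 5400 of the IDR list (dashed line) in each replicate.

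The order of the 7 genes by signal was nearly the same in each library. Replicates 1 and 3 gave the order of the pooled list, and in replicate 2 mRpS2 (218) was above mRpL24 (204). The 5 strongest genes were among the strongest 5400 peaks of all 3 replicates, mRpS28 of 2 replicates and mRpS22 of none. Counting the strongest 5400 peaks of each replicate in place of the IDR list gave 7, 9 and 9 genes, a mean of 8.33 ± 1.15 (SD, n = 3), or 11.4% ± 1.58 of the family. All protein-coding genes gave 11.4%, 12.3% and 13.6% in the same lists, a mean of 12.4% ± 1.08 (SD, n = 3). The ranges of the family and of all genes overlap. The replicate lists were used in making the IDR list, so they are not independent of it.

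By subunit, 3 of 47 large subunit genes (6.38%) and 4 of 26 small subunit genes (15.4%) were counted in the IDR list, beside the 12.0% of all genes. In the replicates' strongest peaks the counts were 4.67 ± 0.577 and 3.67 ± 0.577 (SD, n = 3). The pooled list gave 13 (27.7%) and 7 (26.9%), which are nearly equal shares. The small subunit count rests in part on weak peaks, those of mRpS28 and mRpS22. It falls from 4 to 3 when replicate 1 is left out and to 2 when replicate 2 or replicate 3 is. In these counts an IDR peak is kept only with a counterpart among the strongest 5400 peaks of both other replicates. Of the 42 members that carry the number of a bacterial protein (up to 36 in the large and 21 in the small subunit, a grouping by name alone), 4 were counted in the IDR list and 12 in the pooled list. Of the other 31 members, 3 and 8 were counted. Of all genes 12.0% were counted in the IDR list and 28.2% in the pooled list. No difference between members with and without such a number is read from these small counts.

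The position of the summits differed in value from that at cytosolic ribosomal protein genes, the most similar family by function. The median distance from the summit to the nearest start was 131 bp over the 7 genes (range 12 to 222), 18.0 bp over 58 cytosolic ribosomal protein genes and 100 bp over all 1675 genes with an IDR summit. Of the 7 summits, 6 (85.7%) were upstream of the nearest start, against 60.3% for cytosolic ribosomal protein genes and 69.6% for all. All 1675 genes include 742 with a divergent neighbour, as all 7 have, and over these the median was 113.5 bp with 75.6% upstream and 42.9% within 100 bp. The 58 cytosolic ribosomal protein genes include 40 with such a neighbour. Over these 40 the median was 23 bp, with 72.5% upstream and 95.0% within 100 bp. The 3 oxidative phosphorylation genes with an IDR summit had a median of 143 bp, with all 3 upstream and none within 100 bp. Only 2 of the 7 lay within 100 bp, mRpL23 and mRpS28, against 54 of the 58. These are descriptions of 7 genes, and no test was made, because genes are not replicates.

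**Figure D2:**
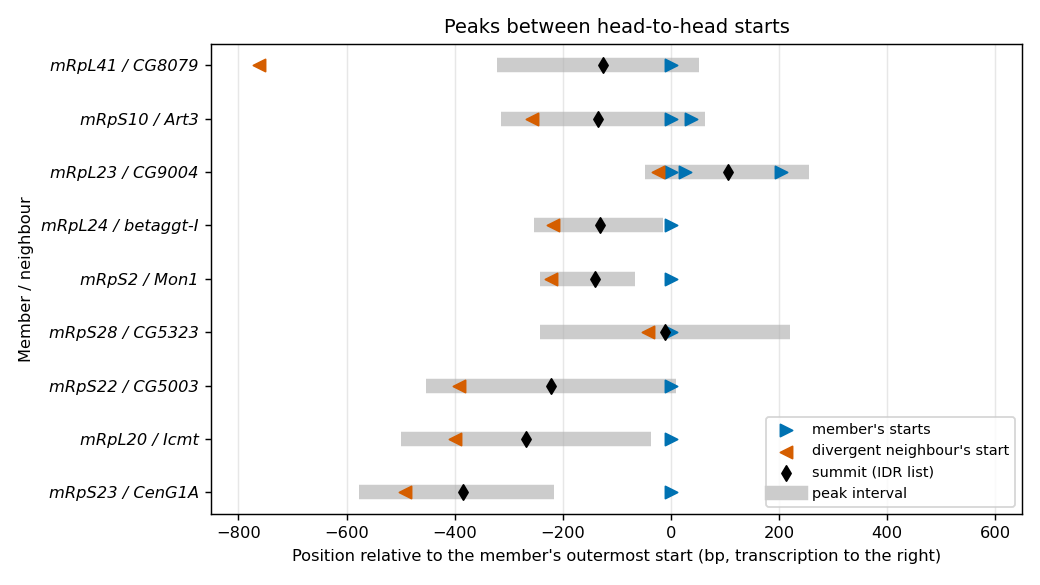
Position in bp, relative to the outermost start of each mitochondrial ribosomal protein gene (blue, transcription to the right), of the IDR peak (grey bar), its summit (black) and the start of the divergent neighbour (orange), for the 7 counted genes and the nearest pair beyond the window. At all of the 7 but mRpL23 the summit lies between both starts, and at mRpL20 and mRpS23 it lies nearer the neighbour.

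Neighbours shared most of the peaks. In the IDR list 6 of the 7 summits were also within 250 bp of another gene's start, and 4 of these, at mRpS10, mRpL24, mRpS2 and mRpS22, were nearer to the neighbour. In the pooled list 15 of 20 were shared. Of all genes with a summit at a start, 464 of 1675 in the IDR list and 880 of 3935 in the pooled list had a shared one. In the IDR list 15 of 58 cytosolic ribosomal protein genes and 3 of 3 oxidative phosphorylation genes did. All 7 members have a divergent neighbour, against 742 of the 1675. Sharing was not counted over those 742 alone, so the 6 of 7 is not set against genes of like layout. It is not read as particular to the family. Head-to-head pairs were common in the family, with a divergent neighbour within 1000 bp for 58 of 73 members (79.5%), against 35.2% of all protein-coding genes, 59.8% of cytosolic ribosomal protein genes and 46.7% of oxidative phosphorylation genes. The median gap between the starts was 283 bp in the family and 300 bp over all such pairs. Of the 58 members with such a neighbour 7 were counted in the IDR list (12.1%), and of all 4914 genes with one 15.1%. None of the 15 members without one was counted, which allows a share of up to 20.0%, while 10.3% of the other 9031 genes were. In the pooled list the shares were 31.0% of the 58 members, against 30.9% of all genes with such a neighbour, and 13.3% of the 15 members, against 26.8% of genes without.

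The window decided the fate of some members. The farthest summits inside it were those of mRpS22 at 222 bp and mRpS2 at 141 bp. Just outside it, mRpL20 had an IDR summit at 269 bp with a signal value of 339, which is 130 bp from the start of Icmt, the enzyme that methylates prenylated proteins. At mRpS23 a strong IDR peak, with a signal value of 1906 at rank 321, had its summit 385 bp from the start and 107 bp from that of CenG1A, which encodes a GTPase-activating protein of the Arf family. The next were mRpL2 at 666 bp (signal value 243, in an intron of FoxK) and mRpL34 at 1204 bp (320, in an intron of Dg, the dystroglycan gene). Within 1000 bp, 10 members (13.7%) and 18.1% of all genes had an IDR summit. Within 10000 bp the shares were 52.1% and 50.8%, and the median distance to the nearest IDR summit was 8540 bp for the family and 9707 bp for all genes. The farthest was mRpS5 on arm 3L, 1591898 bp from any IDR summit.

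**Figure D3:**
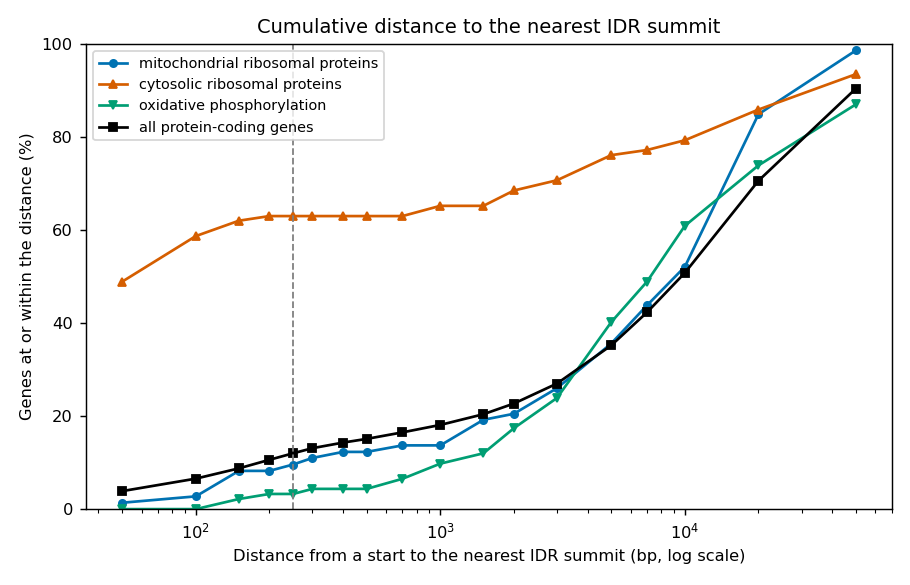
Cumulative share of genes (%) against the distance in bp (log scale) from a start to the nearest IDR summit, for 4 gene sets. The curve of mitochondrial ribosomal protein genes (blue) is below that of all genes at 100 bp (2.74% against 6.55%) and near it at 10000 bp, and that of cytosolic ribosomal protein genes (orange) has reached 63.0% at the 250 bp window (dashed).

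A further 13 genes had a peak at a start in the pooled list that was not in the IDR list. The strongest were mRpL53, with a signal value of 176 at rank 5657, and mRpS18B, with 171 at rank 5877. Replicates 1, 2 and 3 gave mRpL53 48.0, 60.1 and 52.1, and mRpS18B 90.9, 51.4 and 38.0, and each gene was among the strongest 5400 peaks of 1 replicate. The mRpL53 summit is 105 bp from the start of AGO1, the Argonaute protein that works with microRNAs, and 65 bp from that of CG33155. At mRpL37 (156) replicates 1 and 2 had summits 97 and 27 bp from the pooled one, at ranks 12790 and 4609, and replicate 3 had no summit at the start within 200 bp of it. The next in order were mRpS21 (138, beside the chaperone gene Droj2), mRpL51 (122.5, shared with Uba4), mRpS7 (120, shared with the cell cycle kinase gene Cdk1) and mRpL34 (119, shared with Dg). The mRpL34 peak had no counterpart at the start in any replicate list. The remaining named ones were mRpL19 (99.9), mRpL40 (98.7) and mRpL55 (80.9, shared with ATPsynD, a subunit gene of the mitochondrial ATP synthase). Below these were mRpL18, mRpL17 and mRpL11, with 79.3, 69.85 and 57.2. Of the 13, 7 had a summit at a start in all 3 replicate lists, 4 in 2, 1 in 1 and 1 in none. The median pooled signal value over the 20 members was 147, against 152 over the 3935 genes of all kinds with a pooled summit.

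Most of the family had no peak, as did most genes of any kind. Of the 73 genes, 42 (57.5%) had no summit at a start in any of the 5 lists, against 57.3% of all protein-coding genes. A further 11 (15.1%) had one in a replicate list but not in the pooled list, against 14.5% of all. The X chromosome carries 11 members, and none was counted in the IDR or the pooled list, which allows a share of up to 27.3%. Of all genes on X, 11.7% were counted in the IDR list and 31.2% in the pooled list. Replicate lists did hold summits at starts on X. That of mRpL22 had one 4 bp away in replicate 2 and 32 bp away in replicate 3, and that of mRpL14 had one 165 bp away in replicate 2. Of 17 members on 3L, 1 was in the IDR list (5.88%, against 13.1% of all genes there) and 2 in the pooled list (11.8%, against 28.6%). Of 21 on 3R, 2 (9.52%, against 11.0%) and 8 (38.1%, against 26.2%) were counted. On 2L and 2R, each with 12 members, 2 (16.7%) were in the IDR list and 5 (41.7%) in the pooled list, against 13.0% and 29.3% of all genes on 2L and 11.5% and 27.3% on 2R. This split by arm was looked at after the values were seen.

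Other genes of the same pathway were also mostly without peaks. The small subunit genes tko and bonsai, which encode mitochondrial ribosomal proteins under other symbols, had no summit at a start in any list, and their nearest IDR summits were 24807 and 8582 bp away. None of 15 mitochondrial aminoacyl-tRNA synthetase genes, which charge the tRNAs of the organelle, was counted in the IDR list (limit 20.0%), nor of 9 mitochondrial translation factor genes (limit 33.3%) or of 8 genes for mitochondrial transcription and RNA (limit 37.5%). Of all genes 12.0% were counted in the IDR list. The pooled list had 1 in each of these lists, beside the 28.2% of all genes. The products of oxidative phosphorylation genes include partners of the proteins that mitochondrial ribosomes make. In the IDR list 3 of 92 such genes were counted (3.26%, against 12.0% of all genes), ND-51, ATPsynCF6 and SdhC. Their signal values were 280, 206 and 186, and each of the 3 peaks is shared with a neighbour. SdhC had no summit at a start in replicate 1. In the pooled list 21 of the 92 were counted (22.8%), against 28.2% of all genes. The cytosolic ribosomal protein genes had 58 of 92 in the IDR list (63.0%), led by RpS28a, RpS27 and RpL7, and 68 in the pooled list (73.9%). Of these 58, 15 share the peak with a neighbour, among them RpS28a (with Axn), RpS27 (Nup37) and RpL7 (Ripalpha). In the replicates' strongest peaks these lists gave 4 ± 1.73 and 58 ± 4.58 genes (SD, n = 3), beside the 8.33 ± 1.15 mitochondrial ribosomal protein genes. The 2 ribosomal families do not overlap in any replicate, with at most 12.3% in the mitochondrial and at least 57.6% in the cytosolic family. All protein-coding genes gave 11.4% to 13.6% there.

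**Figure D4:**
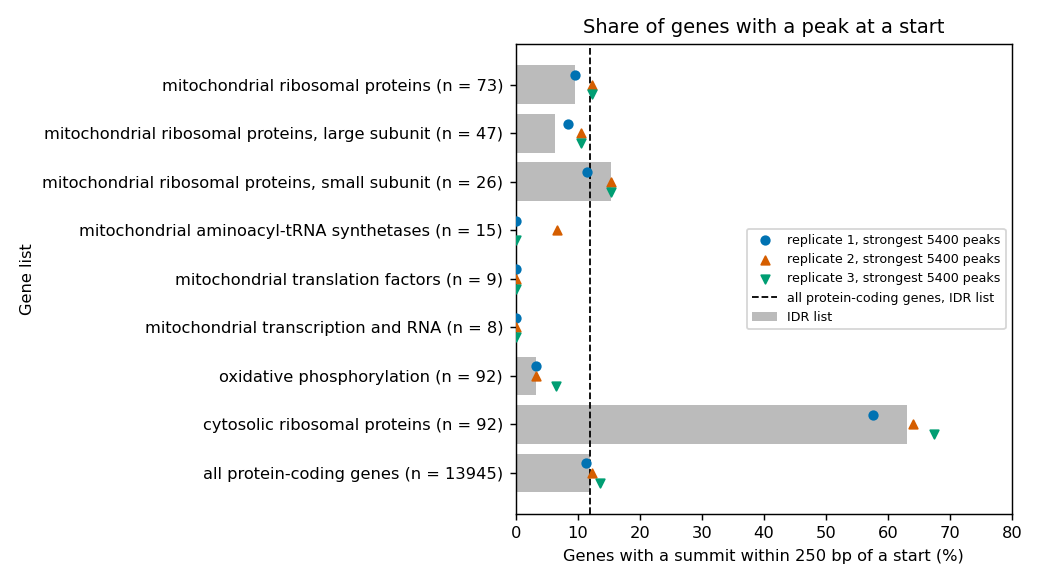
Share of genes (%) with a summit within 250 bp of a start, in the IDR list (grey bars) and among the strongest 5400 peaks of each replicate (points), for each gene list, with the share of all protein-coding genes in the IDR list as the dashed line (12.0%). The mitochondrial ribosomal protein genes lie beside the line, and the cytosolic ones between 57.6% and 67.4% in the replicates.

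The promoters of the family shared a sequence feature that the choice of genes did not use. Promoters were taken as 250 bases before to 50 bases from the outermost start, and 9 sequences were sought in them on both strands. The E-box CAGCTG, a palindrome bound by basic helix-loop-helix proteins, was present in 40 of 73 promoters of the family (54.8%), against 17.7% of all 13945 promoters, 21.9% of those with a divergent neighbour, 23.9% for oxidative phosphorylation and 9.78% for cytosolic ribosomal protein genes. In 35 members (47.9%) a match began within 50 bases of the start, which held for 9.30% of all genes. The share was 12.9% for genes with a divergent neighbour, 19.6% for oxidative phosphorylation and 7.61% for cytosolic ribosomal protein genes. The median first base over the 45 matches of the family was 3 bases into the transcript, and over all genes 51 bases before the start (-51). The other medians were -42.5, -9 and -29, in the same order. Within 50 bases lay 36 of the 45 family matches, 9 of 11 cytosolic, 18 of 26 oxidative phosphorylation and 49.7% of all matches. Nearness of a match to the start is thus not particular to the family. A match describes letters and is not evidence that a factor binds there.

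The E-box stretches nearest the start are shown for 11 of the 15 members with an E-box and a pooled peak, to let their positions be compared. The stretches of the other 4, mRpL18, mRpL41, mRpL53 and mRpS28, are not printed here. They are in the order of the gene symbols. Each runs from 10 bases before to 10 bases after the E-box, which is in capitals.
mRpL11: gcaataccatCAGCTGttgctgcttc
mRpL17: aaatggtcgcCAGCTGttcggcgaat
mRpL19: tcggtgctgcCAGCTGattatagtgc
mRpL23: ggttgacaatCAGCTGtttaaaacaa
mRpL24: cagttctcaaCAGCTGattgcaagcc
mRpL40: gcaacaaaaaCAGCTGttcgtacatt
mRpL51: tgactgcaatCAGCTGatgaatgtcg
mRpL55: gtcacactatCAGCTGcctggcagca
mRpS2: cactacccacCAGCTGtttaccaaaa
mRpS18B: tatcggaaaaCAGCTGatccgccggc
mRpS21: tgatattcatCAGCTGtttagcagta
The first base of the E-box is at -5 for mRpL11, 14 for mRpL17, 9 for mRpL19, -28 for mRpL23, 21 for mRpL24, 24 for mRpL40, -227 for mRpL51, 15 for mRpL55, -11 for mRpS2, 21 for mRpS18B and 3 for mRpS21, counted from the outermost start as 1. In the 4 not printed it is at -68, -9, 17 and -34, in the order named. In 13 of the 15, all but mRpL51 and mRpL18, it lies within 50 bases of the start. Over all 40 members with an E-box, with a peak or without, 35 have a match so near. The position is therefore not particular to members with a peak. At mRpL51 and mRpL18 the E-box lies past the start of the divergent neighbour. In dm6 the stretches lie at chr3R:14511823-14511848, chr3L:264782-264807, chr3R:8674107-8674132, chr3L:2373717-2373742, chr2L:4945326-4945351, chr3R:11407931-11407956, chr2L:8517592-8517617, chr3R:19094876-19094901, chr2L:4850415-4850440, chr2L:20097218-20097243 and chr3R:13381792-13381817, in that order. Those of mRpL11, mRpL17, mRpL19 and mRpL40 are on the plus strand and the others on the minus strand.

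Of the 7 genes in the IDR list 5 have an E-box in the promoter, all but mRpS10 and mRpS22. At mRpL41 and mRpL23 the E-box lies inside the peak interval, with its centre 118.5 and 130.5 bp from the summit, and at mRpS28 it lies inside the interval at 19.5 bp. These intervals are 375, 304 and 464 bp wide, in that order. The median width in the IDR list is also 464 bp, and what sets the width is not stated. The E-box of mRpL23 spans the start of its neighbour CG9004. At mRpL24 and mRpS2 the promoter holds a second E-box further upstream, at -237 and -245, past the neighbour's start. That of mRpL24 lies inside the peak interval, 103.5 bp from the summit, and 3 bases of that of mRpS2 do, at 101.5 bp. The E-boxes near the starts of mRpL24 and mRpS2 lie outside the intervals, 153.5 and 132.5 bp from the summits. Of the 40 members with an E-box, 5 (12.5%) were counted in the IDR list and 15 (37.5%) in the pooled list, against 2 (6.06%) and 5 (15.2%) of the 33 without. Over all genes the shares in the IDR list were 14.9% with and 11.4% without an E-box, and in the pooled list 32.3% and 27.3%.

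The DNA replication-related element TATCGATA (DRE), bound by Dref, was present in 15 promoters of the family (20.5%) and 9.36% of all promoters, and in none of the 7 with an IDR peak. Among members with a pooled peak DRE was present at mRpL17, mRpL19 and mRpS18B, and nothing is read from its absence at only 7 genes. Its core CGATA, which the boundary factor BEAF-32 also binds and which every DRE contains, was in 58.9% and 47.4%, and in 3 of the 7. The core of Motif 1, GGTCACAC, was in 11.0% and 7.70%, and the E-box CACGTG favoured by Myc, a factor that promotes ribosome synthesis, in 6.85% and 4.20%. Among genes with a divergent neighbour, members had DRE, CGATA and Motif 1 in 20.7%, 56.9% and 12.1%. All such genes had them in 16.1%, 59.8% and 13.5%. The shares were 30.4%, 72.8% and 16.3% for cytosolic ribosomal protein genes, and 9.78%, 53.3% and 19.6% for oxidative phosphorylation genes. TATAAA was in 46.6% and 45.8%, the initiator core TCAGT in 38.4% and 51.5%, and GAGAGAG, the sequence of GAGA factor, in 1 member (1.37%) and 5.87%. The sequence GCGCATGCG, from the site of Ewg and its vertebrate relative NRF-1, was in no member and in 0.502% of all promoters. The median GC content was 34.7% in the family and 38.0% in all promoters, and base composition by itself changes how often such words occur.

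**Figure D5:**
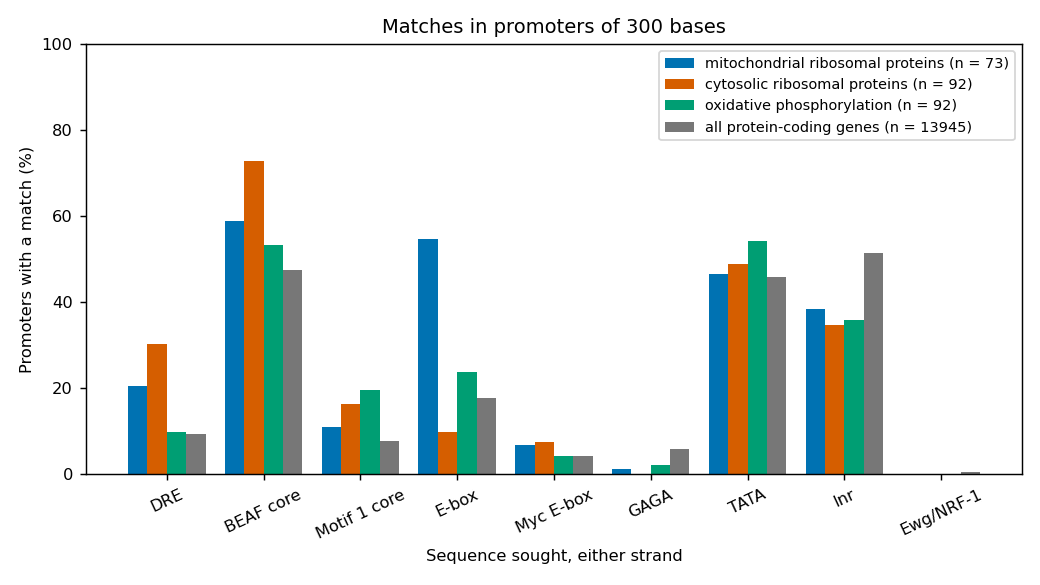
Share of promoters of 300 bases (%) that hold each of 9 sequences on either strand, for 4 gene sets. The E-box bar of the mitochondrial ribosomal protein genes (blue, 54.8%) is above those of the other sets, which lie between 9.78% and 23.9%, and for DRE, BEAF core and Motif 1 core at least one other family is higher.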

How the data were processed

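ChIP-seq libraries of 3 replicates were deposited with peak lists on dm6 and dm3, and the 5 lists on dm6 were used: the IDR list (5400 peaks), the pooled list and 3 replicate lists (30000 peaks each). Per the labels, chromatin was sonicated to 200 to 800 bp. The deposited README notes name, as the origin of a replicate list, the alignments of that replicate plus 1 extra file. All 3 replicates plus that extra file gave the pooled list, and the IDR list was derived from these. Which aligner, caller and IDR threshold were used is not stated by any label, header or note used here. The signal value, a score by the authors' caller, is not scaled between lists. The 5400 IDR peaks are the 5400 strongest pooled peaks, and read depth is unknown. Limits for counts of 0 are 3 counts of the total and cover counting error only. They treat the genes as random draws, although every gene of each list was looked at.

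Summits were set against starts of protein-coding transcripts of Ensembl release 115 on X, 4 and both arms of chromosomes 2 and 3, with dm6 sequence from genome release 6, using Python 3.11.15 and numpy 2.4.6. The counting was checked on simulated peaks. With 1 group and no control library analysed here there is no test between samples, and genes are not replicates, so counts are given beside all genes, with the SD over replicates. Named are all members in the IDR list, the 10 strongest others in the pooled list, those nearest the window's edge, and tko and bonsai. Of 22 symbols sought by name 19 were found. The members, gene lists and sequences were chosen with earlier results of these data known. Alternatives were other windows, peak intervals over the start, the outermost start, stronger peaks and leaving out each replicate.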

Additional observations from a re-analysis of the deposited data

How the results depend on the processing

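Within 100 bp of a start the IDR list gave 2 members (1 large and 1 small subunit gene, mRpL23 and mRpS28) and 6.55% of all genes. The pooled list gave 9 members (12.3%) and 17.5% of all genes. The window's own construction lowers all counts. Within 1000 bp the IDR list gave 5 large subunit genes and 18.1% of all genes. In the stronger 2700 IDR peaks 2 small subunit genes and 7.21% of all genes remained, since mRpS28 and mRpS22 are weak. Leaving out each replicate gave 5 to 6 members, 3 large and 2 to 3 small subunit genes, 9.52% to 9.75% of all genes, and a replicate mean of 8 to 9. In the pooled list it gave 14 to 17 members (19.2% to 23.3%) and 21% to 22% of all genes. The members lost were mRpS22 without any replicate, and mRpS28 without replicate 2 or 3. With the peak interval over the start 5 members were counted, without mRpL24 and mRpS2, and with the outermost start only the same 7. Of 48 alternative values 37 were within 1.5 times the main one. In all alternatives of the IDR list but the outermost start (9.59% against 9.57%) the share of members was below that of all genes. No paired analysis was possible because there is 1 group. Read depth, and so the weakest detectable peak, is unknown.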

Other observations

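At 2 members strong replicate summits lay within 250 bp of the start while no pooled summit did. The start of mRpS26, a small subunit gene chosen here after its values were seen, had a summit at 222 bp in replicate 2 (signal value 91.4, rank 3974) and at 235 bp in replicate 3 (71.6, rank 3316). Replicate 1 had none there, and the nearest pooled summit to the start was 3405 bp away, with a signal value of 46.7. At mRpL47, also chosen after its values were seen, replicates 1 and 3 had summits 170 and 194 bp from the start, at ranks 3940 and 2512, and a pooled summit (144) lay 245 and 221 bp from them, 415 bp from the start. These are the 2 of 73 members that were among the strongest 5400 peaks of at least 2 replicates but had no pooled summit at a start, beside 107 of 13945 protein-coding genes.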
